A study of Mus musculus with 8 samples.

Results

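Brain arrays 1 and 3, with 4 mice, were set against arrays 2 and 4, with the other 4 mice, which together are all 8 mice and all 4 arrays of the study. The division was chosen with earlier results of these data known. It was chosen by the measured log2 levels themselves, in which arrays 1 and 3 had stood apart from arrays 2 and 4. The contrast between the sets is therefore given as a description, with single values, means and SD (standard deviation), and no p-value.

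The study compared 4 mice homozygous for mutant Pus1 with 4 wild-type mice. The protein made from Pus1 is a pseudouridine synthase, which converts uridine in tRNAs and other RNAs. All mice were 14 to 16 weeks old, with 5 generations of backcrossing to C57BL/6J, and total RNA came from a frozen cross section of the brain. An Agilent 2-colour array measures 2 RNA samples at once, 1 in the dye Cy5 and 1 in Cy3, and here each array paired a mutant with a wild-type mouse of its sex. Arrays 1 and 3 held 2 mutant mice in Cy5 and 2 wild-type mice in Cy3. Arrays 2 and 4 held 2 mutant mice in Cy3 and 2 wild-type mice in Cy5. Arrays 1 and 2 were female and arrays 3 and 4 male, so each set held 1 array of each sex. What the mutation is, and where in the brain each section was cut, are not given in the sources used here.

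Both mice of an array share its spots. A difference in the array itself would reach both of them, so each set rests on 2 arrays rather than on 4 independent measurements. Genotype and dye are balanced over the sets, and the set difference is adjusted for both. Within 1 genotype, array set and dye cannot be told apart, and the set difference has the same layout over the mice as an interaction of genotype with dye. All 4 arrays were on 1 slide with 1 scan setting. In bulk RNA, fewer cells of a type and less RNA per cell cannot be told apart.

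The cerebellum holds most neurons of the brain. Its granule cells are small excitatory neurons that send parallel fibres to Purkinje cells, the inhibitory output neurons of the cerebellar cortex. Both cell types express genes that are low in the forebrain. Pyramidal neurons of the cerebral cortex and granule cells of the hippocampal dentate gyrus carry other marker genes.

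The 2 cerebellar genes on which the description turns first are Gabra6, the alpha6 subunit of the GABA-A receptor found in granule cells, and Pcp2, a small regulator of G-protein signalling in Purkinje cells. They led their cell type lists by set difference. Their promoters are shown because the genes of both lists stood together across the mice. Each is a window of 300 bases, most of it before the RefSeq gene start in GRCm38.p6, 5′ to 3′ on the gene's strand, which is the minus strand for both. Gabra6 is at chr11:42321023-42321322 and Pcp2 at chr8:3625498-3625797, where RefSeq lists 4 starts for Pcp2 and the first listed is shown. Capitals mark GCCAA or its reverse complement TTGGC, the half-site of nuclear factor I proteins.
Gabra6: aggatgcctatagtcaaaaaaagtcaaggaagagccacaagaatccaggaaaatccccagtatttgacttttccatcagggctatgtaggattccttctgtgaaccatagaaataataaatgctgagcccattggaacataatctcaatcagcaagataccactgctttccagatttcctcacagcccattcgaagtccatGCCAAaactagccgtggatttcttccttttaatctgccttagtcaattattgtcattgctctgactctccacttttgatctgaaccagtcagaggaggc
Pcp2: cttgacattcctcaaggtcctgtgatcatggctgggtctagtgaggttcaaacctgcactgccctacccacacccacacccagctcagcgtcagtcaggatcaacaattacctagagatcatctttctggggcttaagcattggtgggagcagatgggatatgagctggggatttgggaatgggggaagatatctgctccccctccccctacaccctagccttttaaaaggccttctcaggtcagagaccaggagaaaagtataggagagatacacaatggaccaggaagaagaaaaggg
The half-site TTGGC was searched on both strands, and it lay in the Gabra6 window and not in the Pcp2 window. It lay in 46.7% of all 32851 listed promoters of 300 bases. Of the granule cell list it lay in the promoters of 6 of the 10 genes with an entry, and of the Purkinje cell list in 3 of 6. The full palindrome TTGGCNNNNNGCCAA lay in 0.0365% of all promoters and in neither window shown. These matches describe letters only.

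The set difference was large and reached many probes. Levels are log2 intensities of 1 channel, normalized between arrays, and a difference is the mean of arrays 1 and 3 minus the mean of arrays 2 and 4. Of 33307 probes above background, 4431 (13.3%) had all 4 values of arrays 1 and 3 above all 4 of arrays 2 and 4, and 6271 (18.8%) had all 4 below. Over the 15288 genes with a symbol, each represented by its brightest probe, the counts were 1407 higher (9.2%) and 2971 lower (19.4%). These shares are a background for the counts below. They were part of what chose the sets, and nothing is read from them.

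Higher genes were fewer but differed by more. At a difference of 2-fold or more, 645 genes were higher and 435 lower on arrays 1 and 3. At 4-fold or more there were 179 higher and 9 lower genes, and at 8-fold or more 40 higher and 0 lower. The median difference over genes was -0.153 on the log2 scale. Across probes the set difference had an SD of 0.642, against 0.242 for sex, 0.212 for genotype and 0.266 for dye. At 2-fold or more, 2863 probes differed by set (8.6%), 139 by sex (0.417%), 105 by genotype (0.315%) and 209 by dye (0.627%). The sets were chosen because they stood apart in these levels, whereas sex, genotype and dye came with the design. The place of the set in this order was therefore part of the choice, and nothing is read from it.

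The female and male arrays differed alike across probes, but the arrays had been placed in sets by how they stood apart in these levels. Likeness between the female and male differences, and the split of the sets below, were part of that choice. Nothing is read from either. Array 1 minus array 2 correlated with array 3 minus array 4 across 33307 probes at Pearson's r = 0.82 and Spearman's rho = 0.762, as a description across probes. Of 3955 probes that differed 2-fold or more in the females, 3828 had the same sign in the males. The female difference was wider, with an SD of 0.769 against 0.575 in the males. The differences of mutant mice and of wild-type mice correlated at r = 0.707 and rho = 0.556, and these share their arrays' spots. In a principal component analysis of levels centred per probe, component 1 took 63.79% of the variance. The 4 mice of arrays 1 and 3 lay at 76.45, 78.14, 56.82 and 21.34 on it, and the 4 mice of arrays 2 and 4 between -79.69 and -39.88. Centred levels of mice in different sets correlated at r between -0.798 and -0.293, and mice of 1 set on different arrays at 0.233 to 0.709.

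**Figure D1:**
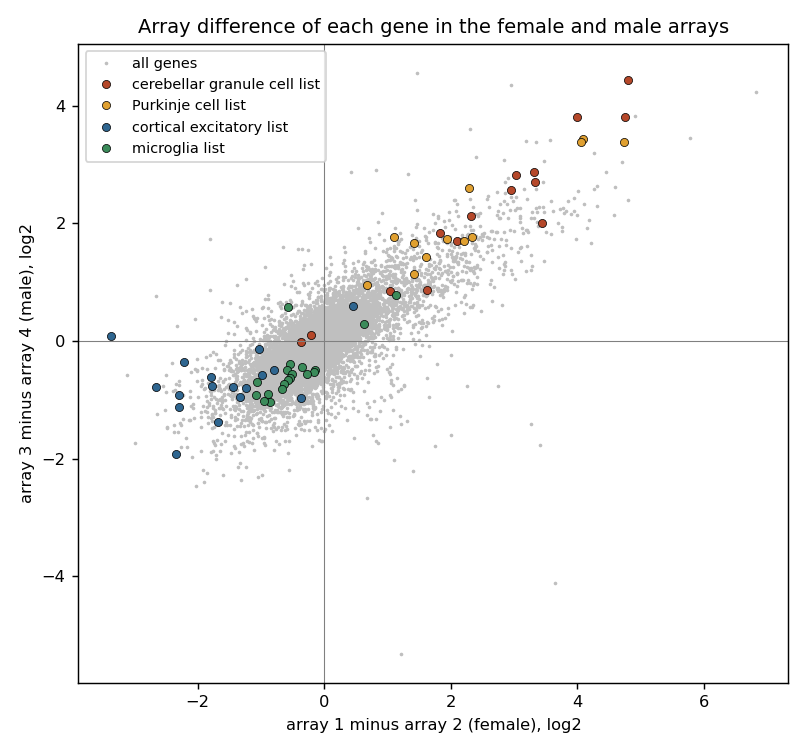
Each point is 1 of 15288 genes, with array 1 minus array 2 (female) across and array 3 minus array 4 (male) up, both in log2 units. Granule cell and Purkinje cell genes run to the upper right with differences up to 4.80 in females and 4.45 in males, while cortical genes lie mostly at the lower left.

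Cerebellar granule cell genes were higher on arrays 1 and 3. Of 15 genes on the list, 12 had all 4 values above those of arrays 2 and 4 and 0 had all 4 below, with a median difference of 2.73 against -0.153 for all genes. Gabra6 had log2 levels of 12.83 and 12.44 on array 1 and 13.71 and 12.76 on array 3 (mutant, then wild type), against 7.91 and 7.76 on array 2 and 11.15 and 6.43 on array 4. Its means were 12.93 ± 0.54 on arrays 1 and 3 and 8.31 ± 2.01 on arrays 2 and 4 (SD, n = 4 each), a 24.6-fold difference by the measured values, although 1 of the 4 mice of arrays 2 and 4 was not well above background. The sets did not overlap, and mutant 4 stood between them, 4.73 above its array partner.

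Crtam, an adhesion molecule of the immunoglobulin family, had 13.32 and 12.76 on array 1 and 13.67 and 13.16 on array 3, against 8.80 and 7.75 on array 2 and 11.40 and 7.83 on array 4. Its fold difference was 19.5. Fat2, a large protocadherin of granule cell axons, had means of 13.53 ± 0.64 on arrays 1 and 3 and 9.63 ± 1.25 on arrays 2 and 4 (15-fold). Zic1, a zinc-finger transcription factor of cerebellar progenitors and granule cells, was the brightest of the list and had means of 15.55 ± 0.58 on arrays 1 and 3 and 12.82 ± 1.55 on arrays 2 and 4. Another probe for Zic1 differed by 1.39 rather than 2.73. In all 4 genes mutant 4 was the highest mouse of arrays 2 and 4.

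The other granule cell genes were named after their values were seen. En2, a homeobox factor of the midbrain and cerebellum, differed by 3.09, Cbln1, a synapse organizer secreted by granule cells, by 3.02, and Neurod1, a neuronal transcription factor, by 2.93. Cbln3, a relative of Cbln1, differed by 2.76, and Grin2c, an NMDA receptor subunit of mature granule cells, by 1.84. Zic4 differed by 1.25 with overlapping values. Barhl1 at -0.06 and Grm4 at -0.18 also overlapped.

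Purkinje cell genes were higher as well, in 12 of 12 genes with no overlap, with differences of 0.82 to 4.06 and a median of 1.90. Pcp2 had 16.61 and 16.30 on array 1 and 17.01 and 16.52 on array 3, against 12.13 and 11.31 on array 2 and 14.73 and 12.01 on array 4. The means were 16.61 ± 0.29 on arrays 1 and 3 and 12.55 ± 1.5 on arrays 2 and 4, a 16.7-fold difference. Ppp1r17, a phosphatase inhibitor that is a substrate of cGMP-dependent kinase in Purkinje cells, had means of 12.01 ± 0.31 on arrays 1 and 3 and 8.25 ± 1.37 on arrays 2 and 4. Car8, which binds the IP3 receptor, had 13.13 ± 0.34 on arrays 1 and 3 and 9.41 ± 1.25 on arrays 2 and 4, and its other probe differed by 3.80. In these 3 genes arrays 1 and 3 had an SD of at most 0.34, while mutant 4 stood above the other 3 mice of its set. With each channel centred on its median in place of the normalization between arrays, 9 granule cell genes were higher and 1 lower without overlap, and 9 Purkinje cell genes were higher. On that scale 3094 of all 33307 probes were higher and 14215 lower without overlap. These are the background for all counts with median centring, although they are over probes and the list counts are over genes. The median difference on that scale was -0.579 over genes and -0.424 over probes. The shares over genes on that scale are not given here. How much cerebellum each section held was not measured.

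Mutant 4 was highest of its set and still below all 4 mice of arrays 1 and 3 in 11 of 15 granule cell genes and 8 of 12 Purkinje cell genes. Its list medians, each taken after subtracting a gene's mean over the 8 mice, were -0.145 for granule cells and -0.291 for Purkinje cells. The other 3 mice of arrays 2 and 4 lay between -1.84 and -1.22 for granule cells and between -1.24 and -0.957 for Purkinje cells. On arrays 1 and 3 the medians were 0.805 to 1.86 and 0.595 to 1.35. The granule cell difference was 2.96 in the females and 2.13 in the males, and the Purkinje cell difference 2.08 and 1.75. These genes therefore varied between the 2 mice of an array as well as between sets: in the granule cell list the mutant exceeded its array partner by medians of 0.56, 0.52, 0.34 and 1.13 on arrays 1, 3, 2 and 4, in 13, 14, 12 and 12 of 15 genes. In the Purkinje cell list these medians were 0.36, 0.50, -0.05 and 0.88.

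Among the 24 genes at the ends of the ranking, Ltbp2, a matrix protein related to the latent TGF-beta binding proteins, was on neither cerebellar list, but its mutant 4 value also stood between the sets. It had 11.85 and 12.16 on array 1 and 11.85 and 12.63 on array 3, against 7.58 and 7.91 on array 2 and 10.08 and 8.0 on array 4. Il16, a cytokine precursor with a neuronal form, had been placed in the hippocampal list and ran against it, with means of 12.05 ± 0.42 on arrays 1 and 3 and 9.22 ± 0.85 on arrays 2 and 4. Mutant 4, at 10.42, was again the highest of its set and below all of arrays 1 and 3.

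Pituitary hormone genes were also higher, although only 4 of the 10 on the list were measured, and 2 of these did not overlap. Prl, prolactin, had 10.37 and 12.65 on array 1 and 12.83 and 10.50 on array 3, against 9.12 and 7.98 on array 2 and 6.89 and 7.72 on array 4. Gh, growth hormone, had 7.54 and 9.28 on array 1 and 12.56 and 10.95 on array 3, against 7.12 and 6.78 on array 2 and 6.99 and 7.41 on array 4. Gh was highest in both mice of array 3. The list median relative to all genes was 1.93, but 0.41 over probes above background in all 8 samples, 0.64 with no filter on dim probes and 2.69 with the scanner software's processed signals.

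Cortical genes were lower on arrays 1 and 3 on average, but the sets overlapped. Of 17 genes for excitatory cortical neurons, 16 had a lower mean, 12 of them by 2-fold or more, yet 1 had non-overlapping values. The median difference was -1.20. Neurod6, a transcription factor of cortical pyramidal neurons, had 8.07 and 7.23 on array 1 and 9.83 and 9.16 on array 3, against 8.06 and 11.91 on array 2 and 11.48 and 11.35 on array 4. Tbr1, a deep-layer transcription factor, had 9.04 and 7.61 on array 1 and 11.61 and 11.51 on array 3, against 7.76 and 14.20 on array 2 and 11.77 and 12.90 on array 4. Mutant 2 was as low as the mice of array 1 for both genes, and wild type 2 was the highest of all 8. Fezf2, a factor of subcortical projection neurons, had means of 8.03 ± 1.07 on arrays 1 and 3 and 9.74 ± 1.56 on arrays 2 and 4.

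The list medians for cortex were -1.24 and -1.32 on array 1, -0.053 and 0.216 on array 3, -1.08 and 1.71 on array 2 and 0.481 and 0.983 on array 4 (mutant, then wild type). The difference was -1.68 in females and -0.774 in males. In mutant mice it was -0.351 and in wild-type mice -2.04, a comparison in which dye differs too. On array 2 mutant minus wild type was -2.69 by the median over the 17 genes, and the wild-type mouse was the higher in 16 of them. Relative to all genes the list stood at -1.04, and at -0.502 without array 1, -0.708 without array 4 and -1.70 without array 3.

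Hippocampal genes gave 4 lower and 1 higher of 13 without overlap, and a median of -0.985. Relative to all genes this was -0.832, and -1.28 without array 2 and -0.521 without array 4. Spink8, a secreted protease inhibitor expressed in CA1, had means of 7.87 ± 0.83 on arrays 1 and 3 and 10.11 ± 1.74 on arrays 2 and 4. Lct, lactase, had means of 7.60 ± 0.28 on arrays 1 and 3 and 9.75 ± 1.00 on arrays 2 and 4 and did not overlap. Wild type 2, mutant 4 and wild type 4 were the 3 highest for both. Npy2r, Gabra5 and Slc30a3 were on no region list and are described as 3 of the 12 lowest genes without overlap. Npy2r, a neuropeptide Y receptor, had 7.0 and 6.70 on array 1 and 6.91 and 6.83 on array 3, against 8.01 and 9.40 on array 2 and 9.47 and 8.77 on array 4, and was well above background in 2 of the 4 mice of arrays 1 and 3. Gabra5, the GABA-A receptor subunit of hippocampal extrasynaptic sites, had means of 8.79 ± 0.33 on arrays 1 and 3 and 10.82 ± 0.42 on arrays 2 and 4. Slc30a3, which loads zinc into glutamatergic vesicles, had 7.39 ± 0.68 on arrays 1 and 3 and 9.23 ± 0.45 on arrays 2 and 4.

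In other brain regions few genes separated the sets, and the mice or arrays that were high differed from list to list. Of 16 striatal genes 0 were higher and 1 lower without overlap, and the list had a median of 0.232, or -0.331 with median centring. Relative to all genes these medians were 0.385 and 0.248. Thalamic genes differed by a median of 1.02 in the females and -1.27 in the males, and 0 of 13 separated the sets. Both mice of array 4 were high for that list, at 0.725 and 0.681. The monoamine list was highest in wild type 1 at 1.86 and mutant 2 at 1.75. Slc6a3, the dopamine transporter, had 11.94 and 12.63 on array 1, 8.28 and 10.57 on array 3, 12.37 and 6.44 on array 2 and 7.14 and 8.28 on array 4. The 4 measured hindbrain genes had a median of 2.85 in mutant 2 and between -0.993 and 0.266 in the other 7 mice. Hoxa3, a hindbrain patterning gene, stood at 10.76 in mutant 2 and between 6.22 and 8.43 elsewhere.

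The hypothalamic list separated the sets in 1 of 17 genes. Oxt, oxytocin, had 10.72 and 10.02 on array 1 and 10.83 and 8.58 on array 3, against 9.51 and 8.80 on array 2 and 16.10 and 13.94 on array 4. It was highest in both mice of array 4. Immediate-early genes, which respond to neuronal firing, had a median of 1.54 in wild type 2 and between -0.905 and 0.393 in the other 7 mice, and 1 of 22 separated the sets. That one was Klf4, at 11.44 ± 0.47 on arrays 1 and 3 and 10.02 ± 0.27 on arrays 2 and 4.

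**Figure D2:**
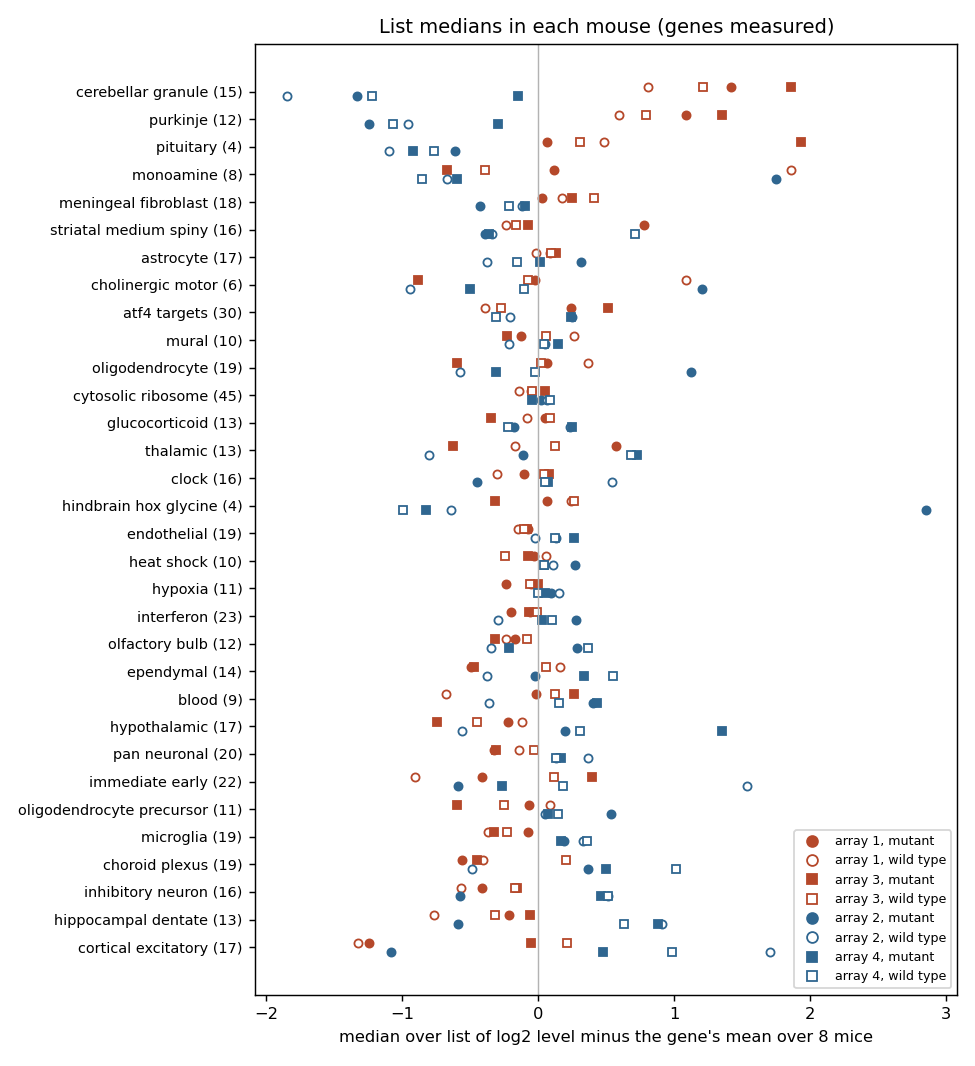
Each row is a gene list with its number of measured genes, and each point is the median over the list in 1 mouse, as the log2 level minus the gene's mean over the 8 mice. Arrays 1 and 3 are red and arrays 2 and 4 blue, with filled points for mutant and open points for wild-type mice. The sets separate, with arrays 1 and 3 higher, for the cerebellar, pituitary and meningeal fibroblast lists. They also separate, with arrays 1 and 3 lower and by less, for the microglial, endothelial and pan-neuronal lists. Mutant 2 stands alone in the hindbrain list at 2.85.

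Microglial genes differed by less, and 16 of 19 had a lower mean on arrays 1 and 3. Of 19, 11 were lower on arrays 1 and 3 without overlap and 1 was higher, with a median of -0.535, and 16 were lower with median centring. Cx3cr1, the fractalkine receptor of microglia, had 11.22 and 10.94 on array 1 and 10.73 and 11.15 on array 3, against 11.80 and 12.25 on array 2 and 11.73 and 12.17 on array 4. Fcrls, a microglial Fc receptor-like protein, had means of 8.74 ± 0.17 on arrays 1 and 3 and 9.73 ± 0.26 on arrays 2 and 4. Itgam, an integrin of myeloid cells, was the 1 higher gene without overlap. Its brightest probe had 17.37 ± 0.28 on arrays 1 and 3 and 16.42 ± 0.09 on arrays 2 and 4. Its 2 other probes differed by -0.41 and -0.07. Siglech, the brightest of the list, overlapped, at 17.74 ± 0.55 on arrays 1 and 3 and 17.29 ± 0.30 on arrays 2 and 4. Tlr7, the receptor for single-stranded RNA, was among the 12 lowest genes without overlap. It had 7.66 ± 0.15 on arrays 1 and 3 and 9.57 ± 0.23 on arrays 2 and 4.

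Endothelial genes had 6 of 19 lower and 0 higher without overlap and a median of -0.168, beside -0.153 for all genes, and 13 were lower with median centring. Kdr, the main VEGF receptor, had 11.63 ± 0.47 on arrays 1 and 3 and 12.77 ± 0.11 on arrays 2 and 4, but another probe differed by -0.16. Oligodendrocyte precursor genes had 3 of 11 lower and 0 higher, and 8 lower with median centring. Relative to all genes their median was -0.336, and -0.008 without array 3. Lower genes included Pdgfra, their growth factor receptor, at 9.63 ± 0.15 on arrays 1 and 3 and 10.25 ± 0.13 on arrays 2 and 4. The oligodendrocyte list separated in 1 of 19 genes and was highest in mutant 2 at 1.13. Of 17 astrocyte genes 0 separated the sets, and 7 were lower with median centring. Meningeal fibroblast genes had 5 higher and 1 lower of 18, with a median of 0.402. With median centring 1 was higher and 1 lower, with a median of 0.089. Relative to all genes the list stood at 0.556, at 0.668 with median centring and at 0.327 without array 3. Col1a2, a collagen chain, had 12.69 ± 0.11 on arrays 1 and 3 and 11.90 ± 0.25 on arrays 2 and 4.

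Pan-neuronal genes had 6 lower and 1 higher of 20, with a median of -0.446, and 10 lower and 0 higher with median centring. Syn1, a synaptic vesicle protein, had 14.83 ± 0.19 on arrays 1 and 3 and 15.75 ± 0.30 on arrays 2 and 4, and Uchl1, a ubiquitin hydrolase abundant in neurons, had 12.71 ± 0.55 on arrays 1 and 3 and 13.88 ± 0.23 on arrays 2 and 4. Snap25, of the vesicle fusion machinery, was higher at 17.16 ± 0.28 on arrays 1 and 3 and 16.34 ± 0.21 on arrays 2 and 4. Of 16 inhibitory neuron genes 2 were higher and 3 lower. Choroid plexus genes had 2 of 19 lower, as for Kl, klotho, at 7.37 ± 0.49 on arrays 1 and 3 and 8.83 ± 0.68 on arrays 2 and 4. Ttr, the transthyretin carrier protein made by the choroid plexus, overlapped at 12.26 ± 1.90 on arrays 1 and 3 and 14.07 ± 2.30 on arrays 2 and 4.

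Of 30 targets of the stress factor ATF4, 1 was higher and 0 lower without overlap, with a median of -0.004. With median centring 0 were higher and 3 lower, with a median of -0.38. Relative to all genes these medians were 0.15 and 0.199. Of 45 ribosomal protein genes 5 were lower and 0 higher, with a median of -0.088, but 35 were lower with median centring, where the median was -0.576. Relative to all genes the ribosomal medians were 0.066 and 0.003. The interferon list had 4 higher and 5 lower of 23, and 1 higher and 10 lower with median centring. Its median difference was -0.238, and 17 of the 23 genes had a lower mean. Iigp1, an interferon-induced GTPase, had 10.57 ± 0.51 on arrays 1 and 3 and 9.24 ± 0.21 on arrays 2 and 4, and Stat2, an interferon signal transducer, had 12.06 ± 0.40 on arrays 1 and 3 and 10.88 ± 0.02 on arrays 2 and 4. Isg15 had 11.30 ± 0.22 on arrays 1 and 3 and 10.29 ± 0.41 on arrays 2 and 4, but its other probe differed by 0.05. Ifi27, the brightest of the list, was lower without overlap, at 13.53 ± 0.07 on arrays 1 and 3 and 13.95 ± 0.27 on arrays 2 and 4. Counts for the remaining lists follow. The olfactory bulb list had 1 higher and 2 lower of 12, the ependymal list 1 and 3 of 14, the mural cell list 1 and 1 of 10, the hypoxia list 1 and 2 of 11 and the glucocorticoid list 1 and 1 of 13. The heat shock list had 0 higher and 3 lower of 10, the clock list 0 and 1 of 16, and the blood and cholinergic lists had none either way of 9 and 6 genes. With median centring 7 of 10 heat shock genes and 7 of 11 hypoxia genes were lower, as were 3 clock, 2 glucocorticoid and 2 blood genes. Since 14215 of all 33307 probes were lower on that scale, a count of lower genes there is not by itself particular to a list.

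Other genes at the ends of the ranking differed in order between arrays, with both mice of array 1 beyond both of array 3 and both of array 3 beyond arrays 2 and 4. How far the 2 mice of an array lay apart varied among them, and the median gap over all tested probes was 0.242. Tssk5, of the testis-specific serine kinase family, led all genes with 15.67 and 15.67 on array 1 and 13.77 and 13.02 on array 3, against 9.32 and 8.36 on array 2 and 9.45 and 8.85 on array 4. Mfap4, a glycoprotein of extracellular microfibrils, had 15.16 and 14.99 on array 1 and 13.12 and 12.44 on array 3, against 9.35 and 9.24 on array 2 and 9.46 and 9.20 on array 4. Efna2, an ephrin ligand of Eph receptors, had 13.88 and 13.77 on array 1 and 12.21 and 11.79 on array 3, against 9.39 and 8.85 on array 2 and 8.96 and 8.95 on array 4. Array 1 was highest, array 3 stood between, and arrays 2 and 4 were lowest. The mean gap between the 2 mice of an array was 0.58 for Tssk5, 0.30 for Mfap4 and 0.27 for Efna2. The predicted genes 4933438K21Rik and Gm10375 had the same order of arrays but wider gaps. 4933438K21Rik had 12.76 and 12.71 on array 1 and 12.29 and 10.64 on array 3, against 9.06 and 6.59 on array 2 and 8.60 and 6.69 on array 4, and was well above background in 2 of the 4 mice of arrays 2 and 4. Gm10375 had 12.21 and 12.34 on array 1 and 11.12 and 10.48 on array 3, against 8.96 and 6.69 on array 2 and 8.56 and 7.30 on array 4. Their mean gaps were 1.52 and 1.07.

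The mirror image was seen among the lowest genes without overlap. Genes with overlapping values, such as Spink8 at -2.24, Neurod6 at -2.13 and Oxt at -2.05, were left out of that ranking. Raver1, an RNA-binding partner of a splicing repressor, had 13.12 and 13.21 on array 1 and 14.43 and 14.03 on array 3, against 15.56 and 15.53 on array 2 and 15.67 and 15.63 on array 4. Another of its probes differed by -0.23 rather than -1.90. Rdh12, a retinol dehydrogenase, had 11.03 and 11.30 on array 1 and 12.07 and 12.08 on array 3, against 13.64 and 13.66 on array 2 and 13.63 and 13.47 on array 4. Klhdc7a, with kelch repeats, and Tm4sf5, of the transmembrane 4 family, had array means of 10.07, 10.85, 12.38 and 12.39 and of 7.69, 8.37, 9.96 and 9.80 (arrays 1, 3, 2 and 4). P3h1, which hydroxylates proline in collagen, was the lowest of the genes without overlap at -2.36, while another of its probes differed by -0.60. The mean gap between the 2 mice of an array was 0.10 to 0.14 for Raver1, Rdh12, Klhdc7a and Tm4sf5 and 0.39 for P3h1. It was 1.56 for Gabra6, close to the 1.52 of 4933438K21Rik, so the gap alone did not part the stepwise genes from the cerebellar ones.

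Of the 12 highest genes 5 had both mice of array 1 above both of array 3, and in the other 7 arrays 1 and 3 overlapped and mutant 4 was the highest of arrays 2 and 4. Of the 12 lowest genes without overlap 9 had both mice of array 1 below both of array 3. Over the 1407 higher genes, array 1 lay wholly above array 3 in 477 (33.9%) and wholly below it in 275 (19.5%). Over the 2971 lower genes, array 1 lay wholly below array 3 in 919 (30.9%) and wholly above it in 272 (9.16%). Among the 12 higher genes of the granule cell list array 1 lay wholly above array 3 in 0 and wholly below it in 2, and among the 12 of the Purkinje cell list in 0 and 6. This ordering was looked at after the values of the leading genes were seen.

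The remaining low genes were Foxo6, a forkhead factor of forebrain neurons, with 10.26 ± 0.24 on arrays 1 and 3 and 12.11 ± 0.78 on arrays 2 and 4, and Rspo2, a Wnt pathway enhancer, with 7.35 ± 0.66 on arrays 1 and 3 and 9.33 ± 0.79 on arrays 2 and 4. Neither set overlapped the other for these genes, and mutant 2 was the lowest mouse of arrays 2 and 4 for both. Rspo2 was well above background in 2 of the 4 mice of arrays 1 and 3. It also had both mice of array 1 below both of array 3, as did Lct, Gabra5 and Slc30a3.

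**Figure D3:**
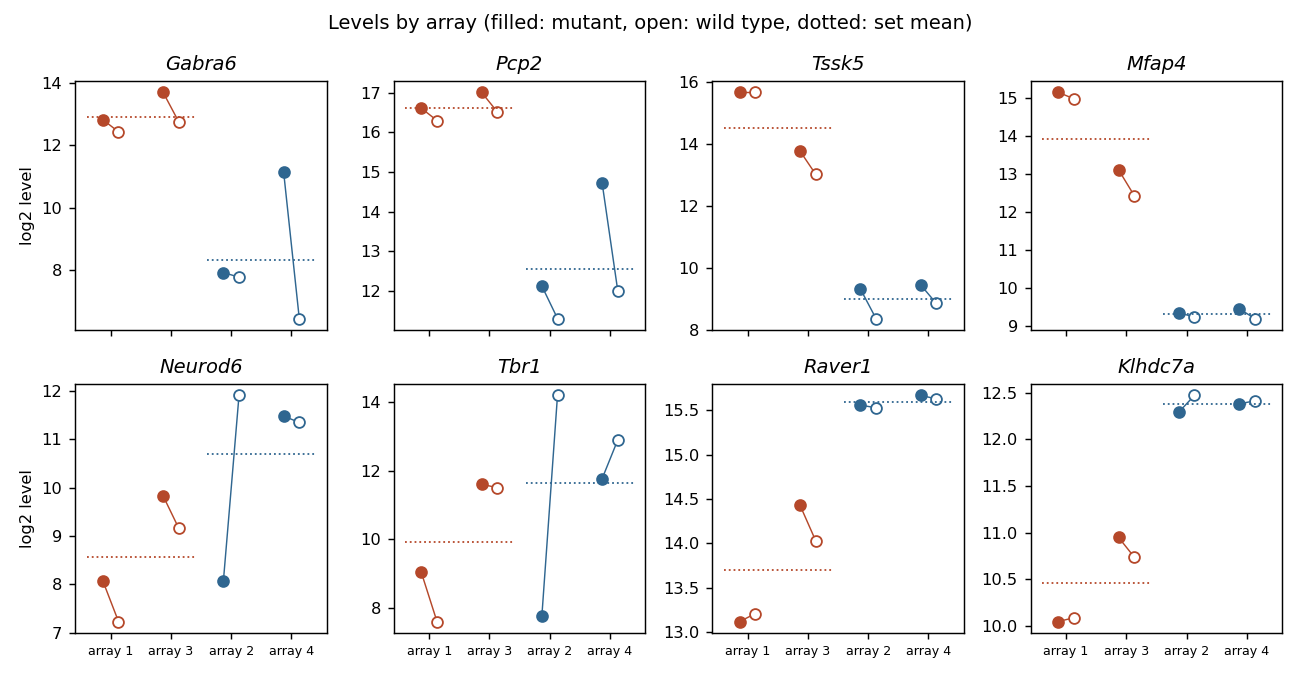
Log2 levels of 8 genes by array, with the mutant (filled) left of its wild-type partner (open), arrays 1 and 3 in red, arrays 2 and 4 in blue and the set means dotted. Gabra6 and Pcp2 vary between the 2 mice of array 4 and Neurod6 and Tbr1 between those of array 2, whereas Tssk5, Mfap4, Raver1 and Klhdc7a step between array 1, array 3 and arrays 2 and 4, with mean gaps within an array of 0.58, 0.30, 0.14 and 0.11.

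The probes that were higher on arrays 1 and 3 were unevenly spread over kinds of target. Of 13643 probes for targets other than RefSeq mRNAs, 10.8% were 2-fold or more higher, against 3.49% of 19664 probes for RefSeq mRNAs. The share was 10.4% for 6884 probes known only by a genome position, 10.3% for 653 probes of RefSeq non-coding RNAs and 12.2% for 1378 probes with no named target. For differences of 2-fold or more in the lower direction the shares were 1.34% for the other probes and 2.63% for mRNA probes. The other probes were dimmer, with a median level of 8.21 against 9.92, but the contrast held in every band of level. It was 6.67% against 2.58% below a level of 8, 17.5% against 5.69% between 8 and 9, and 9.27% against 3.07% above 11. Whether these probes read unspliced, antisense or unrelated RNA was not tested.

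The scaling of the arrays moved with the sets and sets the balance of higher and lower probes. With each channel only centred on its median, the 75th percentile of the probe levels was 10.86 on array 1 and 11.11 on array 3, against 11.61 on array 2 and 11.58 on array 4, with array 1 lowest and array 3 next, as in Raver1 and the other stepwise low genes and the reverse of Tssk5. On that scale 3094 probes were higher and 14215 lower without overlap, so higher probes were 17.9% of the separated ones in place of 41.4%, and the median difference of all genes was -0.579. The main levels were forced to 1 common distribution (Aquantile), which removes such a shift. Gene lists are therefore also given relative to all genes: the granule cell median stood at 2.88 relative to that of all genes on the main scale and at 2.72 with median centring, and the cortical median at -1.04 and -1.06.

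Control probes for RNAs that Agilent adds in known amounts (spike-ins, 10 probes with 35 spots each) moved with the sets too. Their difference had a median of 0.665 and ranged from 0.45 to 0.853 after the normalization between arrays. With median centring it was 0.0653, with a range of 0.0052 to 0.222. Spike-in means after the normalization were 13.05 on array 1 and 12.74 on array 3, against 12.27 on array 2 and 12.21 on array 4. On that median-centred scale probes above a level of 10 had median differences of -0.705 to -0.633, beside the 0.0653 of the spike-ins. Relative to the spike-ins they were thus lower on arrays 1 and 3. The part of this shift in the results by gene was not tested. Raw median signals did not separate the sets: in Cy5 they were 294.5 and 317.5 on arrays 1 and 3, against 293 and 318 on arrays 2 and 4, and in Cy3 119.5 and 129.5, against 125.5 and 136. Other measures did so in Cy5, where arrays 1 and 3 held mutant mice and arrays 2 and 4 wild-type mice. Within 1 dye, array set and genotype cannot be told apart. The local background in Cy5 was 144 and 144.5 on arrays 1 and 3, against 148 and 147 on arrays 2 and 4. Saturated spots were 26 and 22, against 20 and 21, and probes above background 60.86% and 61.52%, against 56.31% and 59.15%. In Cy3 the background and the share of probes above it overlapped between the sets.

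**Figure D4:**
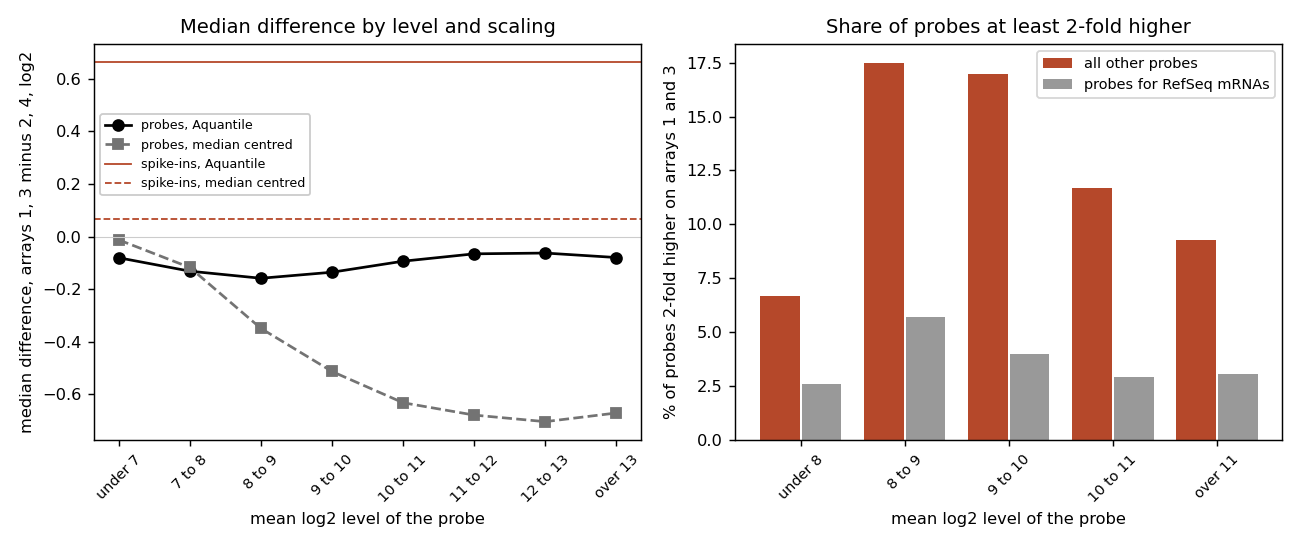
Left, the median difference of arrays 1 and 3 minus arrays 2 and 4 (log2) against the mean level of the probes, after Aquantile (solid) and after median centring (dashed), with the median of the 10 spike-in probes as red lines. Right, the percent of probes 2-fold or more higher on arrays 1 and 3 by level, for all other probes (red) and for probes of RefSeq mRNAs (grey). The median-centred difference reaches -0.705, and the red bars exceed the grey ones in each band.

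Genotype and dye were tested with the array set as a term, and both are balanced over the sets. The term itself was chosen from the same levels, so the p-values depend on that choice. Those without the term are given below. In limma with Benjamini-Hochberg adjustment over 33307 probes, 3 probes differed by genotype at adjusted p under 0.05 (0.00901%) and 1680 at unadjusted p under 0.05, where 1665 are expected with no effect. Pus1 had levels of 7.09, 7.16, 6.75 and 7.04 in mutants 1 to 4, against 9.16, 10.10, 9.36 and 9.79 in wild-type mice 1 to 4. Mutant minus wild type was -2.59 ± 0.14 (SE) with a limma adjusted p of 0.00297, and lower in 4 of 4 pairs. Chac1, a glutathione-degrading enzyme induced by ATF4, was higher in mutants by 1.54 ± 0.10 with a limma adjusted p of 0.00821, in 4 of 4 pairs, and its adjusted p was 0.0898 with the array as a replicate block, 0.0745 with the scanner software's processed signals and 0.0767 with the authors' deposited table. The probe A_55_P2097578, with no symbol here, differed by -1.91 with a limma adjusted p of 0.00297.

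Without the set term 1 probe passed, and Pus1 had a limma adjusted p of 0.0587 and Chac1 0.38. At unadjusted p under 0.05 there were then 402 probes. The estimates were -2.59 and 1.54 in both fits. By dye, 0 probes passed (0%), with a smallest limma adjusted p of 0.149 and 3815 probes at unadjusted p under 0.05. In this layout the dye term is also the difference between the sets in the mutant over wild-type ratio, so the 2 cannot be told apart.

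The labels were checked against marker genes. All 8 brain markers, among them Snap25, Gfap and Mbp, were above background in all 8 mice. Alb and Apoa1, made in liver, were above background in 0 mice and Umod, of kidney, in 1, whereas Acta1, Ins2 and Sftpc passed in 8 and Myh6 in 7. The X-inactivation transcript Xist passed in each of 4 females and in 0 males. The Y-linked genes Ddx3y, Eif2s3y and Uty passed in 0 females and in each of 4 males, and Kdm5d, also Y-linked, in 0 females and 2 of 4 males. Between 56.31% and 67.71% of probes were well above background in a mouse. The small number of arrays limits the precision, and the labels do not say how the 4 arrays were processed apart from their dyes.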

How the data were processed

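RNA from 8 brains was labelled and hybridised to 4 Agilent 2-colour arrays, which the authors quantified in version 10.7.3.1 of Agilent Feature Extraction according to the submitters' processing notes. The deposited intensity values are the median brightness of each spot and its local background, with no correction, and processed signals, background-subtracted and dye-normalized by array, per the file headers. Deposited spot marks (other values, 0 or 1) give well above background, saturated and outlier spots, per the file headers. The authors' deposited table of log2 values followed the quantile-normalized log2 processed signal minus each probe's median (r above 0.999 over 28010 probes), which settled scale, centring and direction. Its column medians were -0.0271, 0.0199, -0.0142 and -0.0024 for mutants 1 to 4 and -0.0496, 0.0364, -0.0053 and 0.0345 for wild type 1 to 4.

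Median signals were corrected with normexp (offset 50), normalized by loess within arrays with control spots at weight 0 and by Aquantile between arrays, and averaged per probe without outlier spots. Of 55681 probes, 33315 were well above background in at least 3 of 4 mice of a genotype. Of these 8 lacked a value, leaving 33307. Symbols came from a RefSeq table (GRCm38.p6), matched by accession for 27509 probes and not for 28172, and the headers name an older build. The set difference is the coefficient of array set beside genotype and dye in limma 3.58.1 (R 4.3.3, and data.table, release 1.17.8). Genotype and dye were tested in that fit, with 4 residual and 3.56 prior degrees of freedom. The fit was tested on simulated data.

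The division of arrays, the gene lists and the genes at the ends were chosen with earlier results of these data known. Named genes were the 12 highest and 12 lowest without overlap, the brightest and the 3 largest differences of each list, Pus1, sex-linked genes and the 3 smallest adjusted p-values by genotype. Others are said to be chosen after their values were seen. The replicate number is the array, so it pairs mutant and wild type, and their deviations from the genotype means correlated at r = 0.791, 0.314, 0.494 and 0.740. On array 2 another number correlated higher (0.690). Alternatives were other signals, normalizations and filters, blocks, a sex term, and leaving out each array.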

Additional observations from a re-analysis of the deposited data

Results flagged for a closer look

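A mouse counts as standing apart here when its gap to the nearest of its set, divided by the range of the 4 mice, exceeds Dixon's 95% critical value, which chance gives in about 1 in 20 groups. For this, 33 lists and 24 genes were checked in 2 sets each. On arrays 1 and 3 mutant 1 was high in the striatal list with a ratio of 0.839. On arrays 2 and 4 wild type 4 was high in the striatal list with 0.949. Mutant 2 was high in the hindbrain list with 0.909 and in the monoamine list with 0.901, and low in the inhibitory neuron list with 0.95. Wild type 2 was high in the pan-neuronal list with 0.851. Rdh12 was low in wild type 4 with 0.85, although its 4 values had an SD of 0.09, and Lct was low in mutant 2 with 0.971.

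For 2 named genes every female mouse went one way and every male mouse the other between the sets. Oxt had a female minus male difference of 6.52, with 1.21 in females and -5.31 in males, where both mice of array 4 were high. Spef2, a protein of motile cilia, had -1.05, with -0.44 in females. The difference between the sexes was not tested for either gene.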

How the results depend on the processing

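The count of higher probes kept within 1.5 times of 4431 in every setting (3094 to 6383). The count of lower probes was 14215 with median centring of each channel, and 7860 to 10726 when 1 array was left out, where fewer mice must be separated. Relative to all genes, the granule cell median was 2.05 to 3.25 when 1 array was left out (lowest without array 2), the thalamic median -0.716 to 0.937, the hypothalamic median -0.955 to 0.324 and the pituitary median 1.09 to 2.30. The pituitary median was also 2.69 with processed signals, 2.68 with the authors' deposited table, 0.41 over probes above background in all 8 samples and 0.64 with no filter. The other 121 settings of region lists moved by less than the spread between mice. The endothelial median lay beside that of all genes and turned sign, at 0.008 with processed signals, 0 with the authors' table, 0.002 with the mean of a gene's probes, 0.002 without array 1 and 0.063 without array 4, in a range of -0.152 to 0.063 when 1 array was left out. Of 1427 values of named genes under alternatives, 126 moved by more than the spread and 0 of those called without overlap turned sign. The causes were not tested.

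In limma 5 probes differed by genotype with median centring, 6 with the array as a random block, 1 without the set term and 0 without any 1 array, where 625 to 3032 had an unadjusted p under 0.05 and few degrees of freedom remain. With the replicate block, which pairs the 2 mice of an array, 3 passed by genotype and 0 by dye (4321 unadjusted), and of the 3 named probes Chac1 lost its call. Chac1 also lost it with processed signals (limma adjusted p of 0.0745) and with the authors' deposited table (0.0767), where 2 probes passed each time. By dye 0 passed in every setting. The 4 arrays are the limit on precision, and dim probes, which normexp draws together, have understated differences.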
